A study of Mus musculus with 1111 samples.

Results

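Messenger RNA of 9 genes of the transforming growth factor beta (TGF-beta) pathway was read out in single microglia, the resident macrophages of the brain. The genes were Tgfb1, Nrros, Tgfbr1, Tgfbr2, Smad2, Smad3, Smad4, Smad7 and Ski, chosen by name, and each was found once among the 35583 genes of the count tables. Microglia of mice aged 3 months were sorted 20 hours after plasma proteins labelled with NHS-Atto647N, a fluorescent dye, had been injected, and were sequenced with Smart-seq2, a full-length method with 1 library per cell. By the signal of that dye the labels place a cell in 1 of 3 groups, called plasma none, plasma low or plasma high. All 3 groups came from injected mice, and strain, sex, genotype and number of animals are not given in the sources used here. No label names an animal, so each group is 1 sample of cells and no test or p-value is given.

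TGF-beta is made as a latent precursor that must be released before it can bind. In the brain the protein encoded by Nrros tethers latent TGF-beta1 to the surface of microglia. The active ligand brings the type 2 receptor Tgfbr2 and the type 1 receptor Tgfbr1 together, the type 1 receptor phosphorylates Smad2 and Smad3, and these enter the nucleus with Smad4. Smad7 and Ski restrain the pathway. Microglia are known to need TGF-beta signalling to keep their homeostatic state.

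The labels also carry TH numbers, 1, 2 or 3, and do not explain them. Cells were summed by group and TH number into 9 sums, and errors are the SD over the 3 TH numbers (n = 3) and say nothing of the spread between animals. Levels are in CPM, the counts of a gene after every sum was scaled to the same total of reads in genes. After a filter 987 cells remained, of which 35.06% were plasma none, 35.56% plasma low and 29.38% plasma high (290 cells). A sum held between 21309816 and 49323522 reads. The median cell had 1631 to 1730 genes with a read in the plasma none sums, 1768 to 2213 in plasma low and 1882 to 2045 in plasma high, and the median mitochondrial share was 0.548 to 0.659%, 0.721 to 0.878% and 0.751 to 1.15%. In each TH number the median reads per cell were also higher for plasma high than for plasma none. The groups lay in separate columns of the plate, plasma none in columns 1 to 8, plasma low in 9 to 16 and plasma high from 17 on, so that plate position and plasma signal cannot be told apart. The part of genes per cell, mitochondrial share, depth and plate position in the differences that follow was not tested. All 8 microglial markers examined had reads, with a summed level of 48428 to 51756 CPM in plasma none, 45387 to 54200 in the low group and 46157 to 54371 in the high group. All 6 neutrophil and all 6 lymphocyte markers had no reads. Of 7 markers of border-associated macrophages 5 had none, Cd163, Pf4, Lyve1, F13a1 and Clec10a, and the list summed to 0.217 to 1.34 CPM, 2.64 to 22.2 and 0 to 4.50 in the same order of groups. Of 6 monocyte markers 4 had none, and the list summed to at most 13.7, 8.42 and 9.18 CPM. Oligodendrocyte markers summed to 21.2 to 68.9, 28.6 to 60.9 and 56.4 to 83.4 CPM, and endothelial or mural markers to 4.68 to 26.1, 12.2 to 22.9 and 12.2 to 23.7 CPM. Neuron markers summed to at most 0.646, 2.32 and 55.3 CPM, with a lowest sum of 0 in every group, and astrocyte markers to 1.62 to 5.40, 1.07 to 27.8 and 0 to 4.95 CPM. The part of these cell types in the differences was not tested.

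The 2 members that were lower in cells with plasma signal were Smad3, which carries the signal to the nucleus, and Smad7, which inhibits the receptors. Smad3 averaged 183.4 CPM ± 51.5 in plasma none, 93.1 ± 33.5 in the low group and 89.4 ± 32.8 in the high group (SD, n = 3 TH numbers). Smad7 averaged 142.4 CPM ± 31.9, 93.04 ± 18.8 and 81.4 ± 49.4 in the same groups. Tgfbr2 was slightly higher in both groups with plasma signal, in each of the 3 TH numbers. The other 6 genes did not keep a direction over the TH numbers between plasma high and plasma none.

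**Figure D1:**
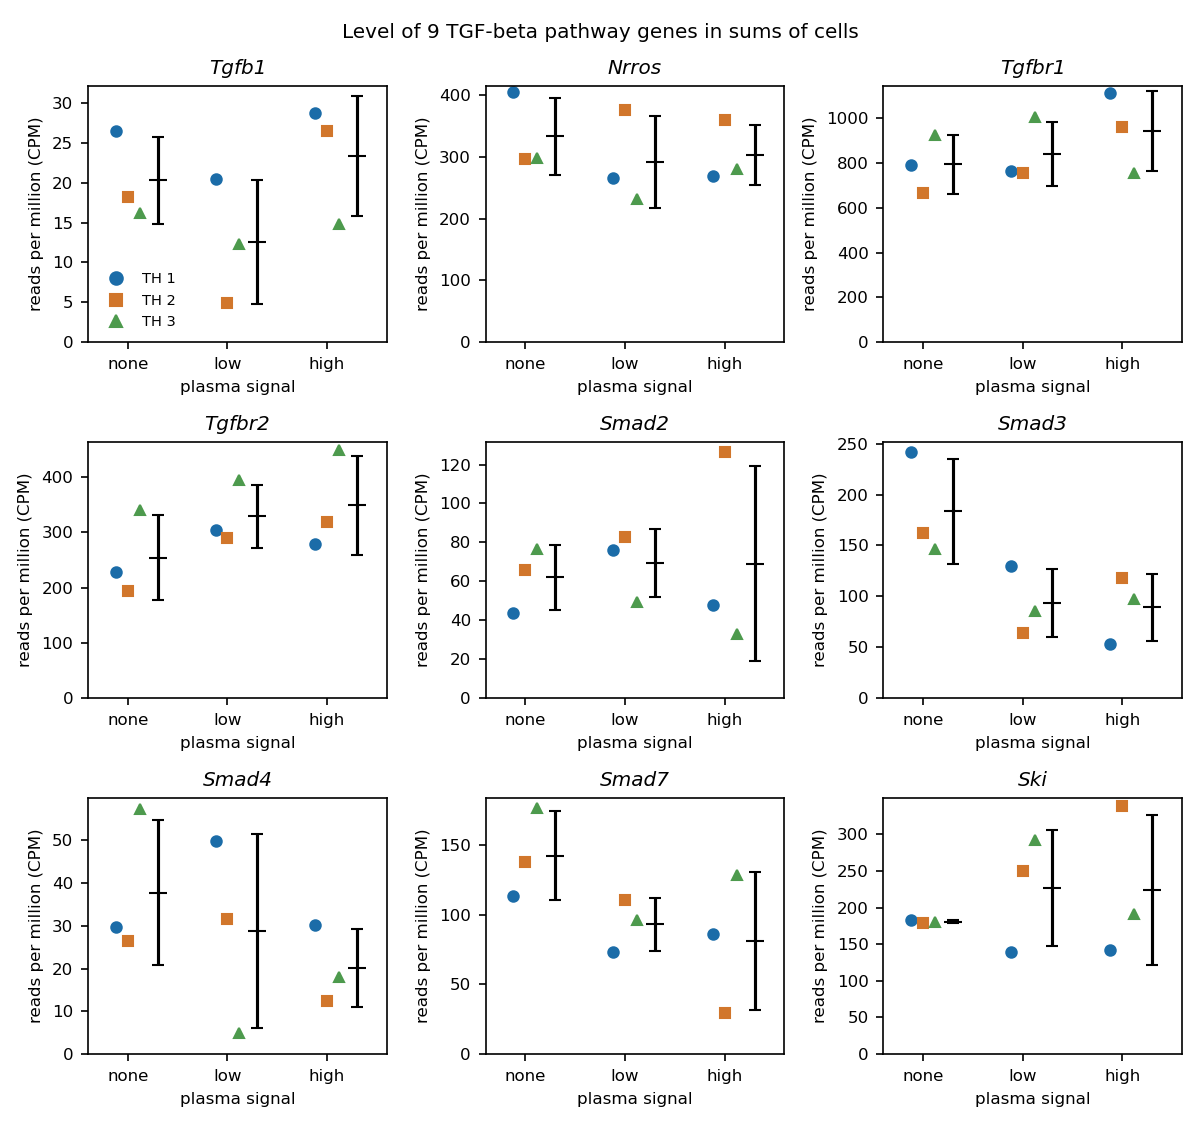
Level of each of the 9 genes in CPM (vertical axis, from 0, a scale per gene) by plasma signal; points are the sums of the 3 TH numbers, and bars show their mean and SD (n = 3). All 3 plasma none sums of Smad3 lie above all sums of the other groups, while most other genes overlap.

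Tgfb1 encodes the ligand and lies on chromosome 7 (25687002 to 25705077, + strand, mm10). It was read at a low level, with 26.5, 18.2 and 16.2 CPM in plasma none for TH 1, 2 and 3. Plasma low gave 20.5, 4.93 and 12.3 CPM, and plasma high 28.8, 26.5 and 14.8. The 3 groups overlapped. The log2 ratio, of CPM plus a pseudocount of 1 and averaged over the ratios within each TH number, was 0.17 ± 0.32 for plasma high against plasma none. That ratio changed sign with the weight of single cells: it was -0.53 when each cell was thinned to 50000 reads and 0.73 when the highest cell was left out of each sum. Plasma low against plasma none gave -0.81 ± 0.77, lower in 3 of 3 TH numbers, and plasma high against plasma low 0.98 ± 1.08, higher in 3 of 3, with the largest differences in TH 2. In these last 2 comparisons Tgfb1 was under the minimum mean of 20 CPM that the counts of genes required. A read of Tgfb1 was found in 12.4% of plasma none cells, 11.4% of plasma low and 15.5% in the high group, and the highest single cell of plasma none held 24.9% of that group's Tgfb1 reads.

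Nrros, on chromosome 16 (32142785 to 32165594, - strand), encodes the membrane protein that holds the latent ligand. In plasma none it stood at 405, 295.7 and 298.4 CPM, in plasma low at 266.4, 375.6 and 231.9, and in plasma high at 269.1, 359.3 and 280. The groups overlapped fully, and no order of the groups held in all 3 TH numbers. The log2 ratio was -0.13 ± 0.44 for plasma high against plasma none, -0.21 ± 0.49 for plasma low against plasma none and 0.07 ± 0.18 for plasma high against plasma low. About as many cells had a read in each group, 48.8% in plasma none, 49.003% in the low group and 51.7% in the high group.

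The receptors were the members read in most cells. Tgfbr1, the type 1 receptor kinase, lies on chromosome 4 (47353222 to 47414931, + strand). It gave 792, 664 and 927 CPM in plasma none, 763, 755 and 1008 in the low group and 1111, 962 and 755 in the high group. Plasma high was the highest group in TH 1 and TH 2 and the lowest in TH 3, and the log2 ratio to plasma none was 0.24 ± 0.47. Plasma low differed from plasma none by 0.08 ± 0.12. The share of cells with a read of Tgfbr1 went the other way, being lower in plasma high after thinning, so no order of the groups is read for this gene.

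Tgfbr2, the type 2 receptor that binds the ligand first, lies on chromosome 9 (116084293 to 116175360, - strand). Plasma none gave 228.5, 193.1 and 341.3 CPM, plasma low 303.7, 289.2 and 394, and plasma high 279.1, 318.2 and 450. Plasma none was the lowest group in each TH number, although the ranges of the groups overlap because TH 3 was high throughout. The log2 ratio was 0.47 ± 0.22 for plasma high against plasma none and 0.40 ± 0.19 for plasma low against plasma none. Plasma high and plasma low differed by 0.07 ± 0.17. With each cell given equal weight, the first ratio fell to 0.21, and with each cell thinned to 50000 reads it was 0.23. Across all genes tested, 32.5% kept their sign in 3 of 3 TH numbers for plasma high against plasma none and 28.5% for plasma low against plasma none, so a kept sign alone is common.

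The 250 bases upstream of the RefSeq start are printed for the receptor pair, which was read in most cells, and for Smad3, whose plasma none sums stood apart from the other groups. They are from GRCm38.p6, 5′ to 3′ on the strand of each gene, and only 6 of the 9 members had an entry in the promoter table. Capitals mark every match, on either strand, to the letters CAGAC (the SMAD box), GAGGAA (a core bound by PU.1, the lineage factor of macrophages), GGGCGG (the GC box) or TATAAA (the TATA box).
Tgfbr1 chr4:47352972-47353221 (+): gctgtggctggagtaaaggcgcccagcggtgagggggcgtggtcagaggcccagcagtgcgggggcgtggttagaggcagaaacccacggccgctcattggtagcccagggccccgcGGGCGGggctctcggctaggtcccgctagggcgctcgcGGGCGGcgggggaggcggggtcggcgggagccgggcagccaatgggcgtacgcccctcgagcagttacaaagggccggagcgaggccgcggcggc
Tgfbr2 chr9:116175364-116175613 (-): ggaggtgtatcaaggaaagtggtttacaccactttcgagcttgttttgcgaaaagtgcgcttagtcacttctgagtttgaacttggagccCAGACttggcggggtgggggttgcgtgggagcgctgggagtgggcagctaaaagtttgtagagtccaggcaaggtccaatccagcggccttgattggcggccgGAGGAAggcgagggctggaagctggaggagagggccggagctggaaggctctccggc
Smad3 chr9:63757995-63758244 (-): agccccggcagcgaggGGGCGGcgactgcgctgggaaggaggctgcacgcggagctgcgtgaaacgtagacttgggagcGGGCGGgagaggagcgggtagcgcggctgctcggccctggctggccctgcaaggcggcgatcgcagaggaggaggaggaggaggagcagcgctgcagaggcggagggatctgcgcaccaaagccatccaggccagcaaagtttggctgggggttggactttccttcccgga
The Tgfbr1 sequence held 2 GC boxes and the Smad3 sequence 2, neither with another of these motifs. The Tgfbr2 sequence held 1 SMAD box and 1 PU.1 core. None of the 3 held a TATA box. Of 32851 promoters of the same length, 42.2% held a SMAD box, 23.3% a PU.1 core, 32.7% a GC box and 12.4% a TATA box, so each of these matches is common. G and C made up 74.8%, 58.4% and 69.2% of the 3 sequences, against a median of 52.4% over all promoters. A match is a run of letters and not a measured site.

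Smad3 lies on the same chromosome as Tgfbr2 (63646767 to 63757994, - strand) and encodes a receptor-activated Smad that binds DNA. Its sums were 242.2, 162.003 and 146.1 CPM in plasma none, 130, 64.2 and 85.4 in the low group and 53.4, 117.7 and 96.99 in the high group. Every plasma none sum lay above every sum of the other groups, while plasma low and plasma high overlapped. For plasma high against plasma none the log2 ratio was -2.16 in TH 1, -0.46 in TH 2 and -0.59 in TH 3, a mean of -1.07 ± 0.95. TH 1 thus carried much of the mean, which was -0.52 without it, under both the 2-fold and the 1.5-fold threshold. For plasma low against plasma none the ratios were closer together, -0.90, -1.32 and -0.77, a mean 1.99-fold lower level with an SD of 0.29 on the log2 scale. Plasma high against plasma low gave -0.07 ± 1.09, with no common sign.

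In the single cells, the share of cells with a read and the level in those cells were measured separately. At 50000 reads per cell the share with a Smad3 read was 17.04% ± 1.66 in plasma none, 17.95% ± 7.48 in the low group and 16.7% ± 5.02 in the high group, and their differences were smaller than the SDs of plasma low and plasma high. Without thinning these shares were 19.1%, 20.5% and 17.2%. Among cells with a read, the median level was 433 CPM ± 47.04 in plasma none, 343.3 ± 62.98 in the low group and 368.8 ± 186.2 in the high group. The 90th percentile over all cells with a read was 2839 CPM in plasma none, 1251 in the low group and 1522 in the high group. By TH number it ran from 2709 to 2817 CPM in plasma none, 764 to 1775 in the low group and 1008 to 1964 in the high group. The plasma none range did not overlap the others, but how many of all genes show this was not counted. These values rest on 66, 72 and 50 cells with a read, and on as few as 11 within a TH number.

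Smad7 is an inhibitory Smad whose gene is itself switched on by TGF-beta in many cell types, and it lies on chromosome 18 (75367529 to 75395935, + strand). Plasma none gave 113.1, 137.8 and 176.4 CPM, plasma low 72.98, 110 and 95.9, and plasma high 86.3, 29.7 and 128.3. Plasma none was highest in each TH number. All plasma low sums lay below all plasma none sums, whereas plasma high overlapped plasma none through TH 3. The log2 ratio for plasma high against plasma none was -0.39, -2.17 and -0.46 in TH 1, 2 and 3, a mean of -1.01 ± 1.01. TH 2 carried most of it, and the mean without TH 2 was -0.42, under both the 2-fold and the 1.5-fold threshold. Plasma low against plasma none gave -0.61 ± 0.28, and plasma high against plasma low -0.40 ± 1.26.

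At 50000 reads per cell, a Smad7 read was found in 22.5% ± 4.24 of plasma none cells, 21.1% ± 1.38 of plasma low and 18.7% ± 4.001 in the high group. The difference of plasma high from plasma none was -3.84 percentage points ± 1.70. It was negative in 3 of 3 TH numbers, a pattern shown by 4.86% of the genes tested. Without thinning it was -1.58 points. The thinned shares of Tgfbr1 (-4.48 points ± 2.84) and Smad4 (-1.37 ± 0.171) were also lower in 3 of 3 TH numbers. Smad4 was outside the genes tested. Among cells with a read the 90th percentile of Smad7 was 1776 CPM in plasma none, 936 in the low group and 776 in the high group, over 87, 82 and 68 cells. By TH number it ran from 1112 to 1941 CPM, 741 to 1175 and 394 to 1577, and the groups overlapped. The median was 300.8 CPM ± 40.7, 236.95 ± 26.3 and 177.9 ± 150, the last with 34.7 CPM in TH 2.

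**Figure D2:**
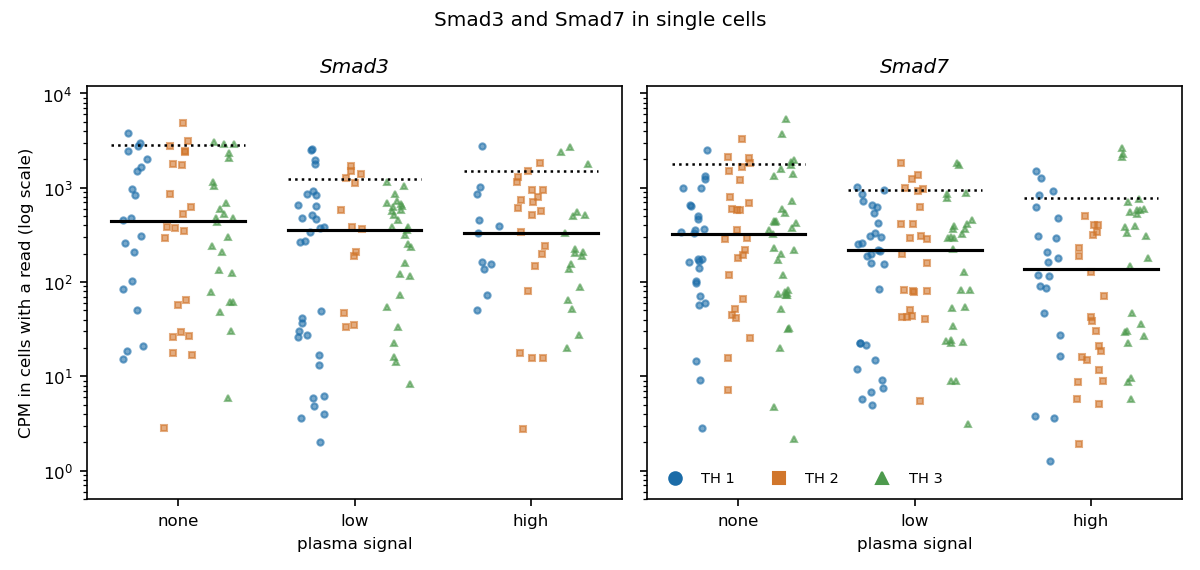
CPM of Smad3 and Smad7 in each cell with a read (vertical axis, log scale) by plasma signal, with a symbol per TH number; solid lines are the median and dotted lines the 90th percentile over the cells of a group. The dotted line of Smad3 is at 2839 CPM in plasma none and at 1251 and 1522 in plasma low and plasma high.

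Smad2, the other receptor-activated Smad of this pathway, and Smad4, the partner shared by all signalling Smads, also lie on chromosome 18 (76241580 to 76310963, + strand, and 73639009 to 73703780, - strand). Smad2 stood at 43.7, 65.9 and 76.4 CPM in plasma none, 76.2, 82.7 and 49.4 in the low group and 48.1, 126.2 and 32.7 in the high group. Its groups overlapped, and its log2 ratio for plasma high against plasma none ran from -1.20 in TH 3 to 0.93 in TH 2 (mean -0.05 ± 1.07). Smad2 therefore did not show the lower level in cells with plasma signal seen for Smad3, but its own spread was as large as the Smad3 difference and the difference between these genes was not tested.

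Smad4 stood at 29.7, 26.4 and 57.3 CPM in plasma none, 49.9, 31.6 and 4.90 in the low group and 30.2, 12.4 and 17.97 in the high group. Its groups overlapped. The log2 ratio was -0.88 ± 0.83 for plasma high against plasma none, where it failed the minimum of cells with a read; it was -0.25 with cells thinned to 50000 reads and -0.30 with equal weight per cell. It was -0.78 ± 2.20 for plasma low against plasma none. This last value was 0.49 without TH 3, so that its sign rests on TH 3. A read of Smad4 was found in 29 plasma none cells (8.38%, exact Clopper-Pearson 95% interval 5.68 to 11.8%, counting error only), 11.1% of plasma low and 7.24% of plasma high.

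Ski is a nuclear co-repressor of the Smads, on chromosome 4 (155154075 to 155222592, - strand). In plasma none its 3 sums were nearly equal, at 183.1, 178.8 and 180 CPM. Plasma low gave 139.1, 250 and 292.5 CPM, and plasma high 141.7, 338.8 and 190.9. The sums in cells with plasma signal lay on both sides of plasma none, and the log2 ratio was 0.21 ± 0.65 for plasma high and 0.26 ± 0.58 for plasma low. More cells had a Ski read with plasma signal, 36.1% ± 1.57 in plasma none, 42.7% ± 2.78 in the low group and 45.96% ± 3.799 in the high group at 50000 reads per cell, and 39.02%, 47.3% and 51.03% without thinning. Plasma high exceeded plasma none by 9.84 points ± 5.37, positive in 3 of 3 TH numbers. Since 34.7% of all genes tested had a higher share in 3 of 3 TH numbers, with a median difference of 2.58 points, and since the CPM did not follow, no order of the groups is read from this share.

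**Figure D3:**
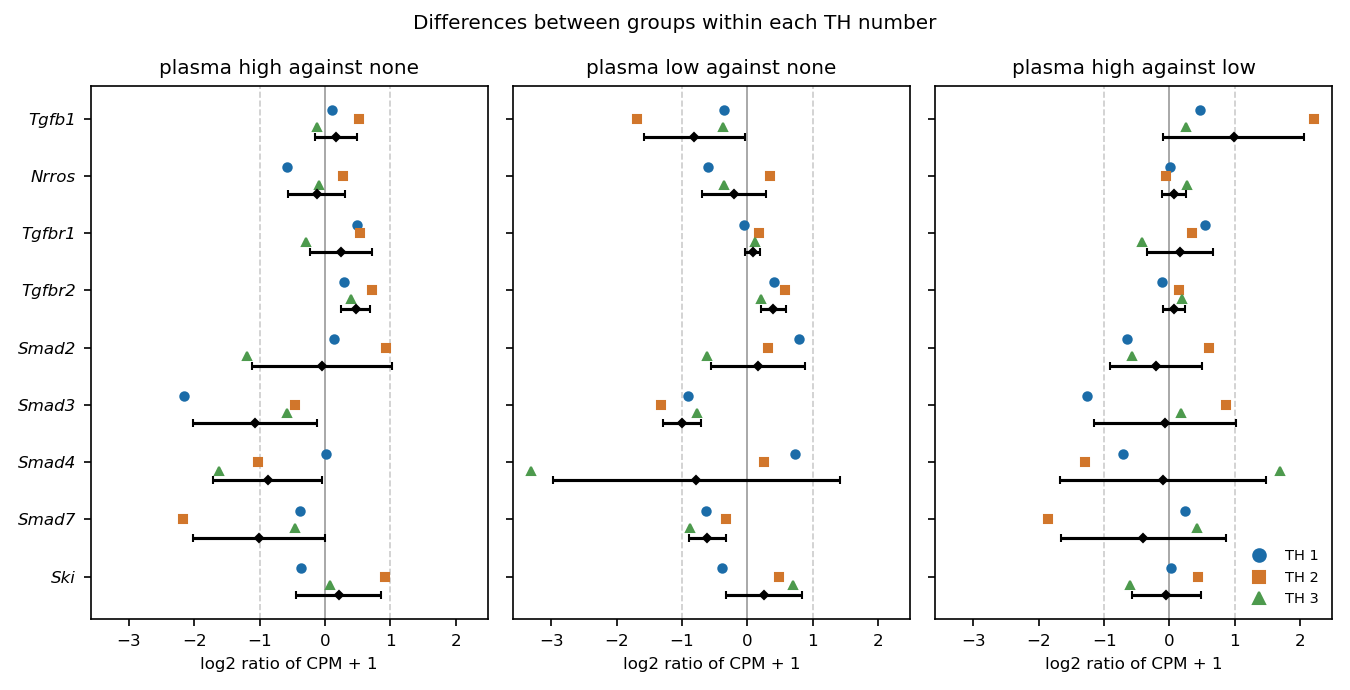
Log2 ratio of CPM plus 1 (horizontal axis) for each gene in the 3 comparisons; coloured points are the TH numbers, and black diamonds with bars are the mean and SD (n = 3), with dashed lines at a 2-fold difference. Smad3 and Smad7 lie left of 0 in both comparisons with plasma none, and Tgfbr2 lies right of 0.

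The size rule asked for a mean difference of at least 2-fold, the same sign in 3 of 3 TH numbers, a mean of at least 20 CPM over the 2 groups and a read in at least 10% of cells of 1 group. For plasma high against plasma none, 2 members met it, Smad3 and Smad7, both lower, beside 5.15% of all 5534 genes tested. The same 2 members passed a 1.5-fold difference, beside 16.3% of all genes, and only Smad3 had sums that did not overlap, beside 13.9%. All members but Smad4 were among the genes tested. The median of the mean log2 ratios of the 9 members was -0.05, against 0.05 over all genes tested. Their median within TH 1, 2 and 3 was 0.02, 0.52 and -0.30 (SD 0.41).

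For plasma low against plasma none, 0 members met the size rule, beside 2.64% of 5489 genes. Smad3 stood just outside the threshold, 1.99-fold lower, and passed it under several other settings. At 1.5-fold 2 members passed, Smad3 and Smad7, beside 10.2% of genes, and both also had sums that did not overlap, beside 9.55%. All members but Tgfb1 were tested, and the median of the 9 mean ratios was -0.21 against 0.05 over all genes. Within TH 1, 2 and 3 the median of the members was -0.36, 0.25 and -0.37 (SD 0.36).

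For plasma high against plasma low, 0 members met the size rule (3.28% of 5709 genes did), 0 passed 1.5-fold (11.1%) and 0 had sums that did not overlap (9.67%). Again all members but Tgfb1 were tested, and the median of the 9 mean ratios was -0.05 against 0.01. The median of the members within TH 1, 2 and 3 was 0.01, 0.35 and 0.19 (SD 0.17). Both comparisons with plasma none use the same plasma none sums, so the values of Smad3 and Smad7 in them are not independent of each other.

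To compare levels between genes, CPM was divided by the length of merged exons in kb and averaged over the 9 sums. Tgfbr1 was highest, at 131.6 CPM per kb ± 22.6 (SD, n = 9 sums), above 96.1% of the 6951 genes with a mean of at least 20 CPM. Nrros followed at 73.997 ± 13.8, then Tgfbr2 at 37.96 ± 9.61 and Ski at 37.9 ± 12.3. Smad7 stood at 23.4 ± 9.23 and Smad3 at 22.01 ± 10.4, both above the median of those genes, 12.7 CPM per kb. Lowest were Smad4 at 7.79 ± 4.50, Smad2 at 7.61 ± 3.20 and Tgfb1 at 3.72 ± 1.54. Of the neighbours in this order, only Tgfbr1 and Nrros, and Nrros and Tgfbr2, had ranges over the 9 sums that did not overlap. Tgfbr2 lay above Ski in 4 of 9 sums and Smad4 above Smad2 in 5 of 9, so those pairs have no order.

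The share of cells with a read followed much the same order. At 50000 reads per cell, Tgfbr1 was read in 89.01% ± 0.652 of plasma none cells, 89.2% ± 5.13 of plasma low and 84.5% ± 3.48 of plasma high. Tgfbr2 was read in 60.03% ± 7.03, 66.9% ± 9.92 and 65.8% ± 10.1. The shares for Tgfbr2 were higher than in plasma none by 6.91 points ± 4.28 in plasma low and 5.80 ± 3.65 in plasma high, in 3 of 3 TH numbers each, as for 38.8% and 34.7% of all genes tested. Nrros was read in 46.8% ± 4.70, 46.4% ± 4.61 and 50.5% ± 7.72, Smad2 in 13.6% ± 2.05, 14.2% ± 4.58 and 14.4% ± 5.08, and Tgfb1 in 8.39% ± 0.563, 8.26% ± 1.72 and 10.98% ± 2.17. Without thinning, the share was 91.9%, 90.03% and 89.7% for Tgfbr1 and 63.9%, 70.7% and 69.7% for Tgfbr2.

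**Figure D4:**
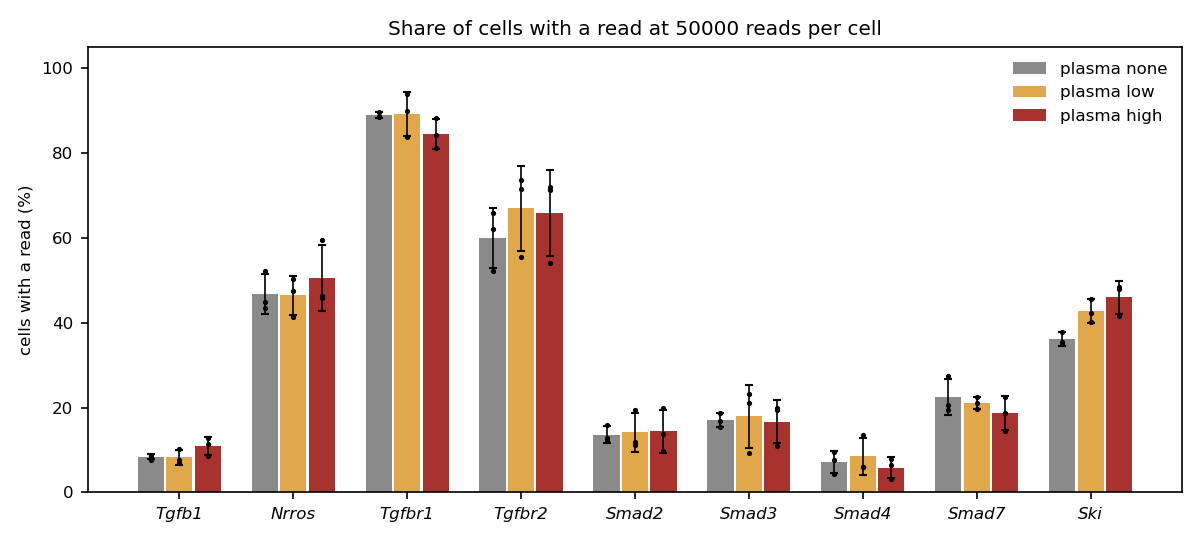
Share of cells with at least 1 read of each gene after thinning every cell to 50000 reads (vertical axis, percent), by plasma signal; bars are the mean of the 3 TH numbers (dots) and error bars their SD (n = 3). Tgfbr1 is read in over 80% of cells of every group, and Tgfb1 and Smad4 in few.

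A single cell gave reads of few members at a time. At 50000 reads the mean number of the 9 genes with a read was 3.01 ± 0.166 in plasma none, 3.15 ± 0.285 in the low group and 3.13 ± 0.134 in the high group, and no cell had more than 7. Both receptors were read in 54.8% ± 6.28, 60.97% ± 10.7 and 57.6% ± 9.41 of cells. Reads of both receptors, of Smad2 or Smad3 and of Smad4 met in 5, 3 and 3 cells. Over the 36 pairs of members, the mean Spearman correlation across cells within the 9 sets ran from -0.021 to 0.128, the highest for Tgfbr1 and Tgfbr2. Cells of a set share their group and TH number, and correlations this weak in sparse counts are no finding.

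The genes whose pattern over the 9 sums was most like that of the 3 members with the highest level per kb were taken by Pearson correlation of log2(CPM + 1), centred within each TH number, over 6951 genes. For Tgfbr1 they were Itgb3 (r = 0.961), Sfr1 (0.952) and Ppp2r1a (0.947). For Nrros they were Elf1 (0.989), Anapc7 (0.968) and Cpt2 (0.960), and for Tgfbr2 Clic4 (0.990), Rpl32 (0.980) and Ppp2r1b (0.979). The 9 sums share TH numbers and groups, and these are the highest of many values. Clic4 averaged 3.48 CPM in plasma none, 26.6 in the low group and 31.99 in the high group, a wider step than that of Tgfbr2.

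The rest of the pathway was read through lists of genes chosen for their role, of which those with a mean of at least 20 CPM were counted for plasma high against plasma none. Over all 6951 such genes, 17.2% were higher and 13.9% lower in 3 of 3 TH numbers, with a median log2 ratio of 0.03. The size rule was met by 2.43% of them as higher and by 1.64% as lower. Of 18 genes for ligands and their activation, 9 had no reads in any of the 987 cells, including the other ligands Tgfb2 and Tgfb3, the latent binding protein Ltbp1, the anchor Lrrc32 and the integrin subunit Itgb8. No reads in 282054715 allow a level of up to 0.0106 CPM, and none in 987 cells a share of up to 0.304% of cells with a read (3 counts, counting error only). Among the 6 counted, 0 met the size rule, 2 were higher and 1 lower in 3 of 3 TH numbers, and the median was 0.32. Itgb1, a subunit of integrins that bind matrix, gave 0.47 ± 0.42, and Furin, the protease that cleaves the precursor, gave -0.32 ± 0.27.

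Of 15 receptors and receptor-associated genes, 9 were counted, 1 met the size rule, 3 were higher and 1 lower in 3 of 3 TH numbers, and the median was 0.18. The gene that met it was Tgfbrap1, which encodes a protein that binds TGF-beta receptors, at 1.45 ± 1.04, with 21.8 CPM ± 17.9 in plasma none, 18.8 ± 13.1 in the low group and 49.3 ± 3.99 in the high group. Its ratio ran from 0.34 in TH 3 to 2.41 in TH 1. Plasma high against plasma low gave Tgfbrap1 1.69 ± 1.36, which also met the rule, beside 1.37% of all 6951 genes that met it as higher. Eng, the co-receptor endoglin, was lower by a similar amount in each TH number, at -0.58 ± 0.14, with 189.1 CPM ± 17.9, 162.8 ± 17.6 and 125.5 ± 7.49 in plasma none, low and high. This is a difference under 2-fold in sums that did not vary widely.

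Among 15 Smad partners and nuclear cofactors, 14 were counted, 0 met the size rule, 0 were higher and 2 lower in 3 of 3 TH numbers, and the median was -0.12. Ppm1a, a phosphatase that acts on receptor-activated Smads, gave 0.70 ± 0.88 and Usp4, a deubiquitinase that acts on the type 1 receptor, -0.86 ± 0.55. Of 12 inhibitors and ubiquitin ligases, 6 were counted, 0 met the rule, 1 was higher and 2 lower, and the median was -0.26. Smurf1, a ubiquitin ligase recruited by inhibitory Smads, gave 0.61 ± 0.22, and Tgif1, a nuclear co-repressor, -0.56 ± 0.28. In the non-Smad branch 8 of 10 were counted, 0 met the rule, 1 was higher and 1 lower, and the median was -0.26. There the small GTPase Rhoa gave 0.46 ± 0.15, and the adaptor Daxx gave -1.61, -0.61 and -0.78 in TH 1, 2 and 3 but was not tested, as too few cells had a read.

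Of 15 direct targets known from many cell types, Id1, Id3, Ccn1 and Ccn2 had no reads, 5 were counted, and the median was -0.24. Of these 5, 1 met the size rule and was also the only gene with a common sign: Id2, an inhibitor of helix-loop-helix factors, was higher by 1.30 ± 0.66. It passed the minimum share of cells only through plasma high, from 6.36% of plasma none cells and 18.7 CPM there, so the filter and the difference are not independent. The lowest was Pdgfb, a growth factor subunit, at -0.42 ± 0.62.

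Microglial genes known to be lower when TGF-beta signalling is lost were all 16 counted. Of these, 0 met the size rule, 1 was higher and 6 were lower in 3 of 3 TH numbers, and the median was -0.06. Tmem119, a microglial surface protein, gave -0.44 ± 0.15, and Pros1, a ligand of phagocytic receptors, 0.60 ± 0.31. Of 15 genes known to be higher when the signal is lost, 14 were in the table, Spp1 and Ms4a7 had no reads, and 6 were counted. Of these, 3 met the size rule, all higher, and the median was 0.81, while 2.43% of all 6951 genes met it as higher and 1.64% as lower. Those 3 were the lipid carrier Apoe (3.48 ± 1.73), the lysozyme Lyz2 (1.05 ± 0.39) and the antigen presentation chain Cd74 (2.70 ± 1.31). Apoe, read in 8.09% of plasma none cells, and Cd74, at 6.93 CPM in 4.34% of them, passed the share of cells only through plasma high. The place of both genes in this count is therefore not independent of their differences. In plasma none the highest single cell held 47.4% of the Apoe reads. The lowest of that list, the endotoxin co-receptor Cd14, gave 0.03 ± 0.27. These lists were drawn up with results of these data known, so their counts are a description.

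**Figure D5:**
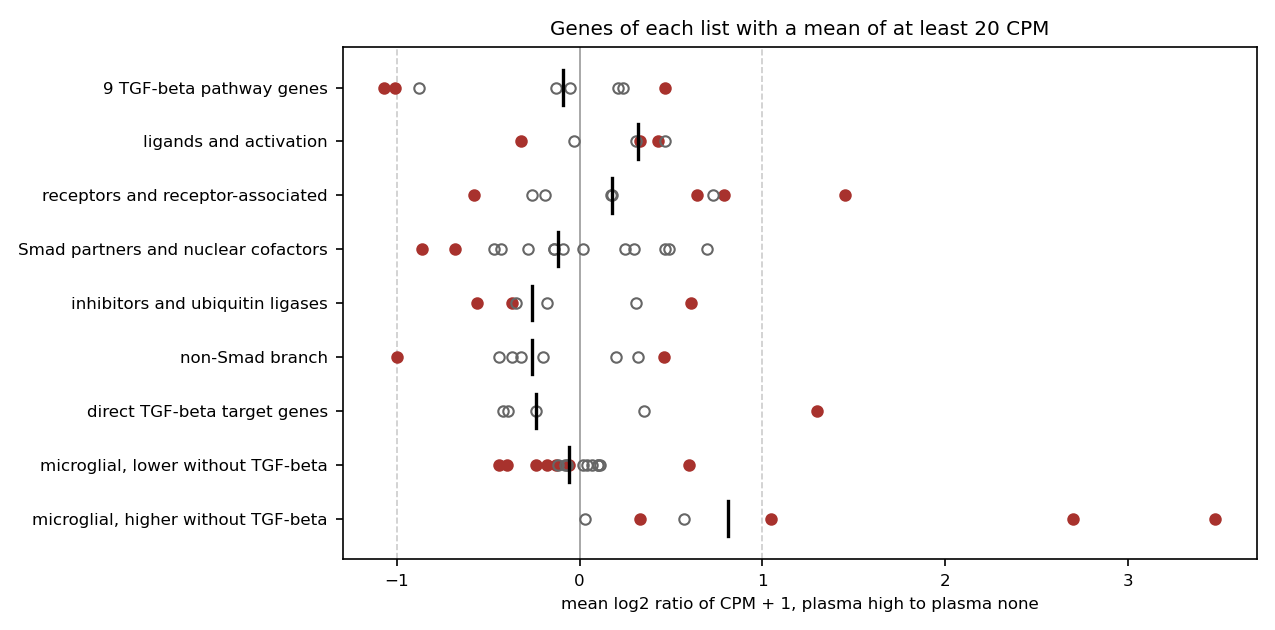
Mean log2 ratio, plasma high over plasma none (horizontal axis) for each gene of a list with a mean of at least 20 CPM; filled points kept their sign in 3 of 3 TH numbers, black bars are list medians, and dashed lines mark a 2-fold difference. The genes known to be higher without TGF-beta reach furthest right, with Apoe at 3.48, while the other lists spread around 0.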

How the data were processed

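The deposited tables, 1 per TH number, hold 1 count of reads per gene and cell. In 1 column 2 values were not whole, so the values of this column were taken to be expected counts, as the authors deposited them, and rounded. Reads were handled with bcl2fastq, Trim Galore, STAR 2.5.3a and Seurat on mm10, per the submitters' processing notes; which tool counted the reads, and whether by strand, is not given in the sources used here. The columns of TH 2 and TH 3 were made from alignments limited to top hits, per the file headers, and those of TH 1 carry no such note. Columns were matched to labels through the well and TH number in their names, which gave 1045 of 1111 cells; the other 66 were not analysed here. The submitters' labels named the wells and groups, and 0 columns stayed unmatched. Gene IDs were matched to GENCODE M21 for exon lengths (35546 of 35583, 99.6% of them with the same start and end), and no member shared exon bases with another gene.

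Cells with at least 50000 reads and 500 genes were kept, since shallow cells hold few reads of any member. They were summed by group and TH number, so that deep cells weigh more, and scaled to CPM with TMM factors (edgeR 4.0.16, R 4.3.3). Log2 ratios used a pseudocount of 1 CPM within each TH number, over the whole table. Each cell is a GEO sample and no animal is named, so no test was made. Shares were compared after thinning to 50000 reads, with exact Clopper-Pearson 95% intervals, which cover counting error only, as PCR reads without molecular identifiers are not independent molecules. The cells were sorted singly, so no doublet caller was run. The size rule was checked on simulated data with changes well above the 2-fold threshold, so the check does not cover genes near that threshold.

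Named were all 9 members, from each list the genes with the largest positive and negative ratio of plasma high to plasma none among those with at least 20 CPM and those meeting the size rule, and the 3 genes most like each of the 3 members with the highest level per kb. The members, lists, markers and rules were chosen with earlier results of these data known. The alternatives were other scalings (including DESeq2 1.42.0), pseudocounts, cell filters, weights per cell, wells and lengths, fits by edgeR and DESeq2, and leaving out each TH number.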

Additional observations from a re-analysis of the deposited data

How the results depend on the processing

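Of 432 log2 ratios of the members recomputed under other settings, 426 moved by less than their SD over TH numbers, and 6 moved further. The ratios of Smad3 and Smad7 to plasma none kept their sign under all of these settings, while Smad4 for plasma low against plasma none turned from -0.78 to 0.49 without TH 3. For plasma high against plasma none, 1 member instead of 2 met the 2-fold rule with a pseudocount of 5 CPM, equal weight per cell or thinning to 50000 reads. In the same comparison 3 members instead of 2 passed 1.5-fold with the top cell left out of each sum. Leaving out 1 TH number gave 1 or 2 members at 2-fold and 1 or 2 at 1.5-fold; it was 1 without TH 1 and 1 without TH 2. For plasma low against plasma none, 1 member instead of 0 met the 2-fold rule under total-read scaling, DESeq2 size factors, a pseudocount of 0.1 CPM, all cells with a read, a filter of 100000 reads and 1000 genes, the top cell left out and the outermost wells left out; without 1 TH number it was 0 or 1. At 1.5-fold it was 1 instead of 2 with a pseudocount of 5 CPM, and 1 to 3 without 1 TH number. For plasma high against plasma low, 0 or 1 member passed 1.5-fold without 1 TH number. The cause of these changes was not tested.

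Smad3 for plasma high against plasma none ran from -1.37 (without TH 2) to -0.52 (without TH 1), and Smad7 from -1.32 (without TH 1) to -0.42 (without TH 2). Same-numbered sums come from 1 count table, and the log2 ratios above were taken within each TH number. The correlations of the deviations of same-numbered sums ran only from 0.031 to 0.090. With the TH number as a replicate block in edgeR, the median log2 ratio of the 9 members was -0.05 for plasma high against plasma none, and 0.15 without the block; Smad3 gave -0.98 and -1.04, and Smad7 -0.89 and -0.81. For plasma low against plasma none the blocked median was -0.22 and for plasma high against plasma low -0.00. The SD of the log2 ratio over TH numbers was 0.70 to 1.07 for Smad2, 0.83 to 2.20 for Smad4 and 0.32 to 1.08 for Tgfb1, the members with the fewest reads, and 0.29 to 1.09 for Smad3. What depth adds to this spread was not tested.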

Other observations

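Some genes of the lists outside the rule for names were picked after their values were seen. Strap, which encodes a protein that binds TGF-beta receptors and Smad7, exceeded its plasma none level in plasma high by 0.79 ± 0.05 on the log2 scale (SD, n = 3 TH numbers), and plasma low was higher by 0.74 ± 0.22. Its levels were 75.5 CPM ± 17.6 in plasma none, 129.1 ± 40.03 in the low group and 131.6 ± 31.6 in the high group, and a read was found in 13.01%, 23.1% and 19.7% of cells. Fkbp1a, which binds the type 1 receptor, gave 0.64 ± 0.33 for plasma high against plasma none. The integrin subunit Itgb5 gave 0.43 ± 0.14, from 1184 CPM ± 164.6 in plasma none to 1586 ± 111.2 in plasma high. Skil, the close relative of Ski, fell by 0.37 ± 0.19, from 2042 CPM ± 213.1 to 1580 ± 223.1. All 4 kept their sign in 3 of 3 TH numbers, and none met the size rule.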
